A study of Homo sapiens with 82 samples.

Results

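RNA polymerase II (RNAP2) sites that carried no peak of H3K27 acetylation (H3K27ac) were examined in HT29 cells, an established line from a human colorectal adenocarcinoma. A site was the merged span of RNAP2 peaks of replicate 1 and replicate 2 wherever they shared 1 bp or more. The sites were selected on their RNAP2 and H3K27ac peaks: each was an RNAP2 site of DMSO-treated cells that overlapped an RNAP2 site in each of the 4 drug-treated groups and no peak in any of the 10 H3K27ac files. Of 26581 RNAP2 sites in DMSO, 12931 were found in all 4 drug-treated groups, and 1304 of these, or 10.1%, had no H3K27ac peak and are called H3K27ac-free sites here. The remaining 11627 had a peak in at least 1 H3K27ac file and are called H3K27ac-marked sites. Of the 13650 DMSO sites that were not found in every drug-treated group, 3341 (24.5%) were without H3K27ac, and they were left out.

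RNAP2 transcribes messenger RNA genes, and its peaks in ChIP-seq mark start sites where the enzyme initiates or pauses, gene bodies through which it travels, and enhancers that are themselves transcribed. H3K27ac is a mark that the acetyltransferases p300 and CBP place on nucleosomes beside active promoters and enhancers. The liver X receptors LXRA and LXRB, activated by oxysterols, and PPARG, activated by fatty acids, are nuclear receptors that bind mainly such elements as partners of RXR, while JunD is a subunit of AP-1, a leucine zipper factor of promoters and enhancers.

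RNAP2 and H3K27ac were profiled in DMSO-treated cells and after 24 h and 48 h of 10 μM GW3965, an LXR agonist, or 10 μM rosiglitazone, a PPARG agonist, with 2 libraries per group. LXRB and LXRA-FLAG were profiled after 2 h and 48 h of GW3965, PPARG after 2 h and 48 h of rosiglitazone, and JunD in DMSO-treated cells, again with 2 libraries per group and 14 libraries in all. LXRA was a Flag-tagged transgene in G418-selected cells, whereas LXRB, PPARG and JunD were profiled with antibodies to the proteins themselves. Before treatment all cells were kept in medium free of phenol red with charcoal-treated serum. RNA-seq had 4 libraries per group of DMSO, GW3965, rosiglitazone or 10 μM T0901317, another LXR agonist, at 24 h and 48 h. The T0901317 libraries entered the fits and the ranges over all RNA-seq libraries, but their comparison with DMSO is not reported. DMSO ChIP-seq libraries carry no treatment time in their labels, and nothing in the labels says that replicates came from separate cultures, so the p-values measure only the spread between these libraries. JunD was profiled without a ligand and the receptors with one, so that factor and treatment cannot be told apart between them.

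Peaks per library ranged from 27249 to 35934 for RNAP2, from 23015 to 31824 for H3K27ac, from 4555 to 14788 for LXRB, from 18436 to 30953 for LXRA-FLAG, from 8933 to 24039 for PPARG and from 11069 to 13027 for JunD. The peak score is minus 10 times the log10 of the peak caller's p-value, and no file held a peak under a score of 100. The absence of a peak therefore means only that this score was not reached at the depth of that library, which is unknown here.

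The H3K27ac-free sites were more often very narrow, and more often very wide, than those with the mark. Their median width was 1960 bp, with quartiles at 1103 bp and 3176 bp, and they ranged from 327 bp to 40459 bp. H3K27ac-marked sites had a median width of 1722 bp, with quartiles at 1280 bp and 2456 bp. Sites under 1000 bp made up 17.7% of the H3K27ac-free sites and 6.31% of the marked sites, and sites over 5000 bp made up 9.97% and 5.13%. The RNAP2 score of a site in a library was the highest among the peaks that the site overlapped, and a wide site can overlap several. The mean RNAP2 score of the DMSO libraries had a median of 460 at the H3K27ac-free sites, with quartiles at 293 and 764. At the marked sites it had a median of 558, with quartiles at 369 and 868. The score distributions overlapped over most of their range, and in 20 H3K27ac-free and 179 marked sites both DMSO libraries stood at 3100 or above, a value that many peaks share.

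Distances from the H3K27ac-free sites to H3K27ac peaks are given as a description, and they were not compared with those of other positions in the genome. The nearest H3K27ac peak of any file was 7932 bp away at the median, with quartiles at 2970 bp and 22304 bp. It was within 1000 bp for 135 sites (10.4%) and within 100 kb for 1232 sites (94.5%). The nearest H3K27ac-marked RNAP2 site was 20117 bp away at the median. In all, 283 of the H3K27ac-free sites stood in 124 runs in which neighbours were no more than 5000 bp apart. The longest run held 8 sites over 37013 bp at chr7:30639170-30676182 (hg19). By chromosome, the share of H3K27ac-free sites among those present in every group ran from 6.27% of 813 sites on chromosome 6 (95% Wilson interval 4.8% to 8.15%) to 15.1% of 663 sites on chromosome 19 (12.6% to 18.0%). Wilson intervals cover counting error only, and neighbouring sites are not independent.

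The sites just inside and just outside the limit set by H3K27ac are given as a description. The H3K27ac-free site nearest to the mark, chr11:77270757-77271603, was 847 bp wide and 3 bp from an H3K27ac peak. Its RNAP2 scores in DMSO were 144 and 196, and it held peaks in 10 of the 14 receptor and JunD libraries. Next came chr19:39298727-39301148, also 3 bp from a peak, with DMSO scores of 274 and 550 and no receptor or JunD peak. The third, chr12:56116327-56119758, was 8 bp away, with DMSO scores of 557 and 767, both JunD peaks and 1 LXRB peak. The marked site with the smallest overlap, chr18:2908014-2915680, shared 26 bp with a peak of 1 H3K27ac file. It was 7667 bp wide, with DMSO scores of 2644 and 2575 and peaks of JunD alone. The next sites, chr6:19410510-19411397 and chr10:30971073-30971880, shared 146 bp and 152 bp with a peak of 1 file. Their widths were 888 bp and 808 bp, and they held peaks in 12 and 10 of the 14 libraries.

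Receptor occupancy was lower at the H3K27ac-free sites than at the marked sites in each of the 12 receptor libraries, while JunD occupancy was higher in both JunD libraries. An LXRA-FLAG peak at 2 h was present at 26.0% and 22.2% of the H3K27ac-free sites in replicates 1 and 2, against 73.4% and 53.3% of the marked sites. At 48 h, LXRA-FLAG shares were 22.7% and 27.8% against 59.4% and 77.5%. For LXRB, the shares were 13.4% and 10.1% against 38.2% and 26.2% at 2 h. At 48 h of GW3965 they were 24.3% and 31.1% against 50.2% and 64.6%. PPARG peaks were found at 21.9% and 17.9% of the H3K27ac-free sites at 2 h, against 53.9% and 41.6% of the marked sites. At 48 h of rosiglitazone the PPARG shares were 19.2% and 8.97% against 44.9% and 28.4%. No receptor library reached the share at H3K27ac-free sites that it had at marked sites, and the ratio of both shares lay between 0.32 and 0.48. JunD peaks occupied 58.0% and 52.2% of the H3K27ac-free sites, against 41.2% and 41.4% of the marked sites.

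**Figure D1:**
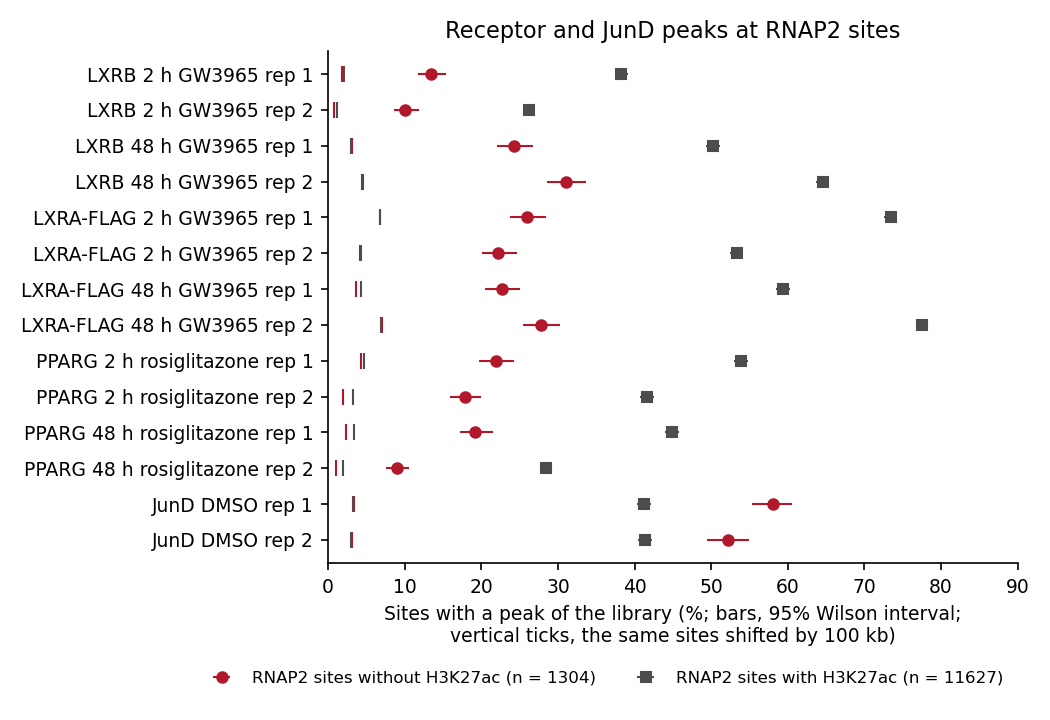
Share of RNAP2 sites with a peak of each receptor or JunD library, in percent of 1304 sites without H3K27ac (circles) and 11627 sites with H3K27ac (squares). Bars are 95% Wilson intervals and vertical ticks give the shares after the same sites are shifted by 100 kb. The circles lie left of the squares in the 12 receptor libraries and right of them for JunD (58.0% and 52.2% against 41.2% and 41.4%).

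Over the 14 libraries, the share at H3K27ac-free sites minus that at marked sites averaged -24.2 percentage points (SD 18.7, n = 14 libraries; exact two-sided permutation test that flips the signs, p = 0.00134). This difference was lower in 12 of 14 libraries. The separation of JunD from the receptors was made after these values had been seen. Taken alone, the 12 receptor libraries gave a mean difference of -30.5 points (SD 10.2; exact permutation p = 4.88e-04, the smallest that 12 libraries can give). The 2 JunD libraries gave +13.8 points (SD 4.19), and 2 libraries alone cannot give an exact permutation p below 0.5. JunD and receptor libraries differed by 44.3 points in this contrast (exact permutation of the library labels, p = 0.0220, the smallest that 2 against 12 libraries allow). Libraries that share a factor or an input control are not independent. When the replicates of a group were averaged, the difference over the 7 groups had an exact permutation p of 0.0312, while that between JunD and the receptors, 1 group against 6, had p = 0.286, which is the smallest it could have.

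After a shift by 100 kb, the H3K27ac-free sites held a receptor peak in 0.767% to 6.98% of cases and a JunD peak in 3.07% to 3.37%. The shares observed in place were thus above these shifted values in all 14 libraries. The shifted positions were not required to lack H3K27ac peaks.

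The difference in receptor occupancy varied with the width of the site. The H3K27ac-free sites were split at the quartiles of their width, and marked sites were placed in the same classes. In the narrowest class (327 bp to 1102 bp, 325 H3K27ac-free and 1521 marked sites), receptor shares at H3K27ac-free sites ran from 21.8% to 73.5%, with a median of 52.5% over the 12 libraries. The marked sites of that class had receptor shares of 23.4% to 78.8%, with a median of 60.5%. In the second class (327 H3K27ac-free sites) the median receptor share was 21.4%, against 49.8% at marked sites. In the third and the fourth class (326 H3K27ac-free sites each), it was 3.07% and 4.14%, against 45.5% and 60.1% at marked sites. The H3K27ac-free sites thus had the lower receptor shares the wider they were, up to the third class, while the marked sites had their lowest median in the third class and stood as high in the widest as in the narrowest. Averaged over the receptor libraries, the share at H3K27ac-free sites minus that at marked sites was -5.31 points in the narrowest class (range of libraries -13.5 to 0.981) and -51.9 points in the widest (-79.3 to -24.5). JunD shares were above those of marked sites in every class, by 12.7, 7.11, 13.2 and 8.12 points on average over both libraries. In the widest class, JunD peaks were present at 74.5% and 65.0% of the H3K27ac-free sites. These classes are given as a description, with no test.

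**Figure D2:**
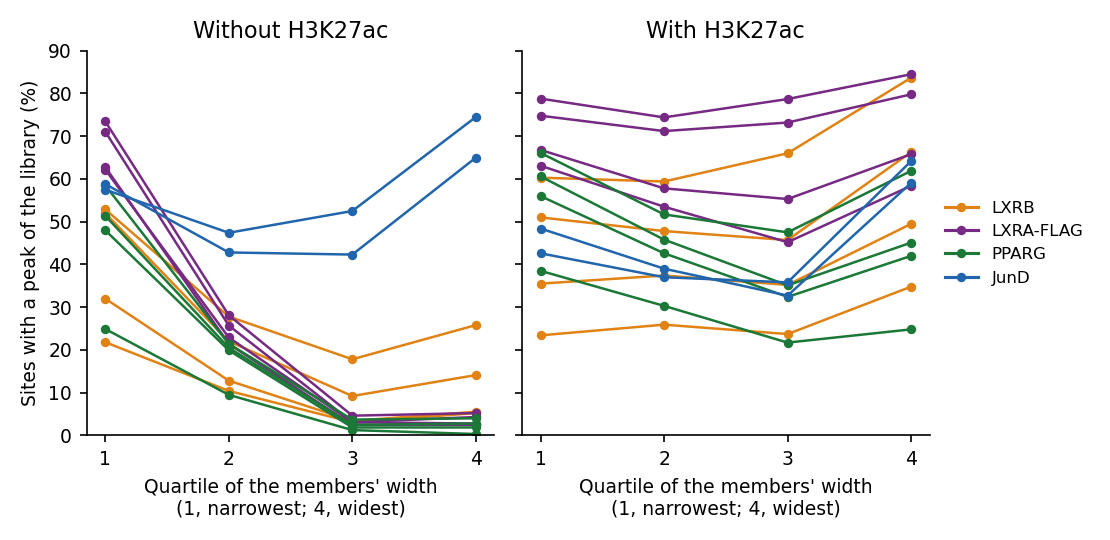
Share of RNAP2 sites with a peak of each of the 14 libraries (y axis, percent) by quartile of the width of the H3K27ac-free sites (x axis), for sites without (left) and with H3K27ac (right). Each line is 1 library. On the left the receptor median goes from 52.5% in the narrowest to 4.14% in the widest class while JunD is at 42.3% or more, and on the right the receptor medians are 60.5% and 60.1%.

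A limit of 1500 bp, chosen after these values had been seen, divided the H3K27ac-free sites into 512 narrow and 792 wide sites. At the narrow sites, LXRA-FLAG peaks were present in 60.2% and 52.5% of sites at 2 h and in 53.1% and 63.1% at 48 h. LXRB shares were 27.7% and 19.9% at 2 h and 46.1% and 48.6% at 48 h. PPARG peaks stood at 50.2% and 42.6% of narrow sites at 2 h and at 44.9% and 21.5% at 48 h. At the wide sites, by contrast, LXRA-FLAG shares were 3.91%, 2.65%, 3.03% and 5.05%, each below the share of the same library after the shift by 100 kb, which was 9.60%, 5.81%, 4.67% and 9.22%. PPARG shares at wide sites, between 0.884% and 3.54%, were likewise each below the shifted value of the same library, between 1.39% and 6.06%. LXRB was the exception among the receptors. Its 48 h peaks were present at 10.2% and 19.7% of the wide sites, against shifted values of 4.42% and 6.44%. The shifted positions could overlap H3K27ac peaks, which the rule barred at the H3K27ac-free sites. Only 20.5% to 25.5% of LXRA-FLAG peaks, 21.7% to 28.6% of PPARG peaks and 9.27% to 13.4% of LXRB peaks lay outside H3K27ac. A comparison with shifted positions that lack H3K27ac was not made. JunD was found at 55.5% and 55.3% of the narrow sites and at 59.6% and 50.3% of the wide sites, so that the ranges of both classes overlapped. Over the 12 receptor libraries, the median share was 47.4% at narrow H3K27ac-free sites and 57.9% at marked sites under 1500 bp. At wide sites these medians were 3.66% and 49.1%. JunD was found at 42.0% and 45.7% of the narrow marked sites and at 40.7% and 38.6% of the wide marked sites.

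The JunD peaks at wide sites were broader, and had higher median scores, than those at narrow sites. In replicate 1 their median width was 1961 bp and their median score 355, at 472 wide sites. In replicate 2 these medians were 1768 bp and 313, at 398 wide sites. At the narrow H3K27ac-free sites, JunD peaks had median widths of 914 bp and 838 bp and median scores of 207 and 256. At marked sites of 1500 bp or more, JunD peaks had median widths of 1696 bp and 1432 bp and median scores of 255 and 271. A wider peak has more room to overlap another, and the shifted JunD share at wide H3K27ac-free sites was 4.8% and 4.55%.

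When only sites present in both replicates were counted, JunD without any receptor was found mainly at the wide H3K27ac-free sites. Among wide H3K27ac-free sites, 301 of 792 (38.0%) held a JunD site and no receptor site, 72 (9.09%) held both, 19 (2.40%) held a receptor site alone and 400 (50.5%) held neither. Among the narrow ones, 43 of 512 (8.40%) held JunD alone, 204 (39.8%) held both, 118 (23.0%) held a receptor alone and 147 (28.7%) held neither. At marked sites of every width, JunD without a receptor was found in 236 of 11627 cases (2.03%). It was found at 197 of 7161 wide marked sites (2.75%) and at 39 of 4466 narrow ones (0.873%). Over all H3K27ac-free sites, 360 (27.6%) had no peak of any of the 14 libraries, against 9.78% of marked sites, and 36 (2.76%) had a peak of each.

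**Figure D3:**
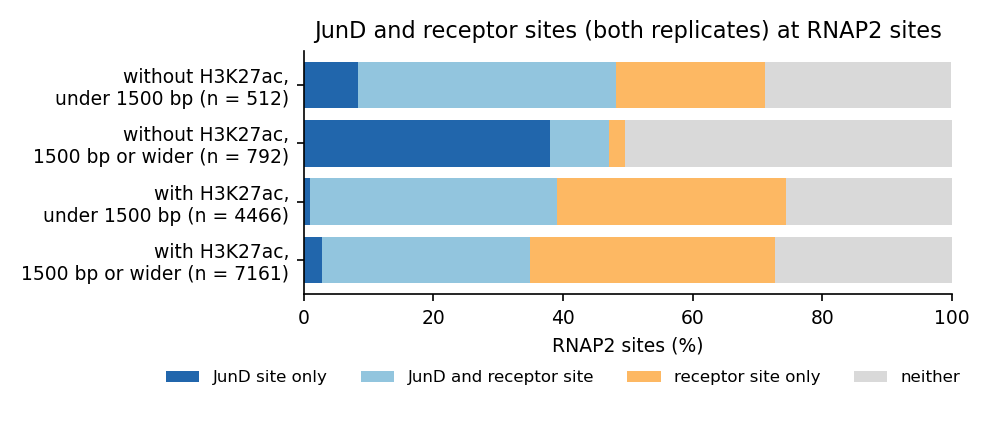
Percent of RNAP2 sites that held a JunD site, a receptor site (LXRB, LXRA-FLAG or PPARG, either time), both or neither, for sites without and with H3K27ac below and above 1500 bp. JunD without a receptor makes up 38.0% of the wide sites without H3K27ac, 8.40% of the narrow ones and 2.03% of all sites with H3K27ac.

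Seen from the peaks of each factor, the same sites weighed differently. JunD peaks outside H3K27ac numbered 3190 and 4139, and 25.8% and 19.0% of them lay at the H3K27ac-free RNAP2 sites. For LXRB, which had between 427 and 1935 peaks outside H3K27ac, 21.7% to 31.6% lay at these sites. LXRA-FLAG had between 3961 and 7890 such peaks and PPARG between 1938 and 6876. Of these, 4.33% to 7.37% and 4.23% to 7.05% lay at the H3K27ac-free RNAP2 sites.

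The number of H3K27ac files with a peak gave a graded view of the mark. RNAP2 sites with a peak in 1 to 3 of the 10 files (501 sites, median width 1112 bp) had LXRA-FLAG shares of 66.3% to 77.0%. At sites with 0 files these shares were 22.2% to 27.8%, and at sites with all 10 files (8446 sites, median width 1929 bp) they were 49.4% to 76.8%. PPARG shares were 30.7% to 61.3% at 1 to 3 files, and 25.5% to 50.2% at 10 files. Receptor shares were highest at 4 to 6 files in all 12 libraries. JunD shares were 56.7% and 61.3% at 1 to 3 files, 56.6% and 59.9% at 4 to 6 files, 45.3% and 47.9% at 7 to 9 files and 38.0% and 37.1% at 10 files. Sites without the mark thus ranked with those of intermediate marking for JunD and below every other class for the receptors. The classes were not matched for width, however. Median widths were 1960 bp at 0 files, 1112 bp at 1 to 3, 1153 bp at 4 to 6 and 1334 bp at 7 to 9 files. The narrow H3K27ac-free sites alone had LXRA-FLAG shares of 52.5% to 63.1%.

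**Figure D4:**
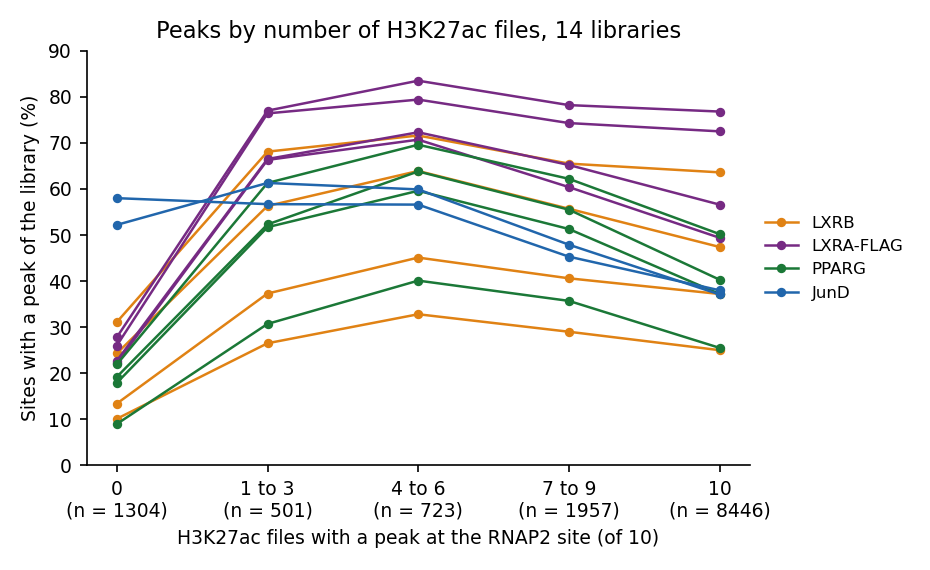
Share of RNAP2 sites with a peak of each of the 14 libraries (y axis, percent) by the number of H3K27ac files, of 10, with a peak at the site (x axis, with the number of sites in each class). Each line is 1 library. Receptor lines are lowest at 0 files and highest at 4 to 6 files, and JunD falls to 38.0% and 37.1% at 10 files.

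Receptor occupancy at the H3K27ac-free sites was compared between 2 h and 48 h. The LXRB share was 11.8% on average at 2 h and 27.7% at 48 h, and both 48 h libraries were above both 2 h libraries (difference 15.9 points; exact permutation p = 0.33, the smallest that 2 against 2 libraries allow). For LXRA-FLAG the averages were 24.1% and 25.3%, and the libraries of both times overlapped (difference 1.15 points, exact permutation p = 0.667). PPARG averaged 19.9% at 2 h and 14.1% at 48 h, and the libraries overlapped here too (difference -5.75 points, exact permutation p = 0.667). By replicate, the differences were -3.30 and 5.60 points for LXRA-FLAG and -2.61 and -8.90 points for PPARG. At marked sites the same differences were 25.2, 5.11 and -11.2 points. Counted as sites of both replicates, LXRB occupied 92 H3K27ac-free sites at both times, 15 at 2 h alone and 196 at 48 h alone (7.06%, 1.15% and 15% of these sites, against 22.3%, 1.69% and 24.9% of marked sites). PPARG occupied 109 at both times, 106 at 2 h alone and 6 at 48 h alone (8.36%, 8.13% and 0.460%, against 27.6%, 12.9% and 0.705%). LXRA-FLAG occupied 254, 35 and 39 (19.5%, 2.68% and 2.99%, against 47.3%, 5.50% and 11.4%).

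RNAP2 scores were compared between drug and DMSO on a log2 scale, after the median over all sites present in every group was set to 0 in each library. Of the 1304 H3K27ac-free sites, 1291 had a peak in all 10 RNAP2 libraries, as did 12879 of the 12931 sites in all. A site was counted as higher or lower where both drug libraries lay on 1 side of both DMSO libraries. All 4 comparisons share the same DMSO libraries. An RNAP2 site in every group was part of the rule that chose the sites, so these counts are a description, with no test. With GW3965 at 24 h, 307 H3K27ac-free sites (23.8%) were higher and 119 (9.22%) lower, where the same held for 20.4% and 18.5% of all sites. At 48 h of GW3965, 551 (42.7%) were higher and 361 (28.0%) lower, against 36.1% and 35.4% of all sites. With rosiglitazone at 24 h, 552 (42.8%) were higher and 112 (8.68%) lower, against 21.8% and 21.0%. At 48 h of rosiglitazone, 494 (38.3%) were higher and 164 (12.7%) lower, against 20.7% and 16.5%. Over narrow and wide H3K27ac-free sites together, the share of lower sites was thus below that of all sites in each comparison. The share of higher sites was above that of all sites in each comparison. All sites include the H3K27ac-free ones and are not matched to them for width. Marked sites of the same width were not counted in this way. At the narrow sites alone, 52.6% were lower at 48 h of GW3965 and 23.2% at 48 h of rosiglitazone, both above the share of all sites. Their share of higher sites at 48 h of GW3965, 26.2%, was below that of all sites.

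The wide and the narrow sites had different scores relative to marked sites of every width, a reference not matched for width. Within the same width class, the mean DMSO score had a median of 581 at wide H3K27ac-free and 696 at wide marked sites. At narrow sites these medians were 344 and 411. At wide H3K27ac-free sites, the median log2 score relative to that of marked sites of every width was -0.19 and 0.22 in the DMSO libraries. It was 0.70 and 0.65 at 48 h of GW3965, 0.81 and 0.88 at 24 h of rosiglitazone, and 1.08 and 0.48 at 48 h of rosiglitazone. In these 3 groups both drug libraries were above both DMSO libraries. Since RNAP2 peaks took part in choosing the sites, these scores are a description, with no test. At 24 h of GW3965 the replicates stood far apart, at -0.26 and 0.95, and enclosed the DMSO values. At narrow H3K27ac-free sites the same measure was -0.66 and -0.73 in DMSO and -1.19 and -1.03 at 48 h of GW3965. It was -0.56 and -0.21 at 24 h of rosiglitazone, both above DMSO, with 33.5% of narrow sites higher and 13.2% lower. At 24 h of GW3965 it was -0.70 and -0.51, and at 48 h of rosiglitazone -0.97 and -0.56, and both groups overlapped with DMSO. With GW3965 at 48 h, 418 of 783 wide sites (53.4%) were higher and 94 (12%) lower, whereas 133 of 508 narrow sites (26.2%) were higher and 267 (52.6%) lower. Scores also depend on the depth and enrichment of each library, whose part in these differences was not tested.

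**Figure D5:**
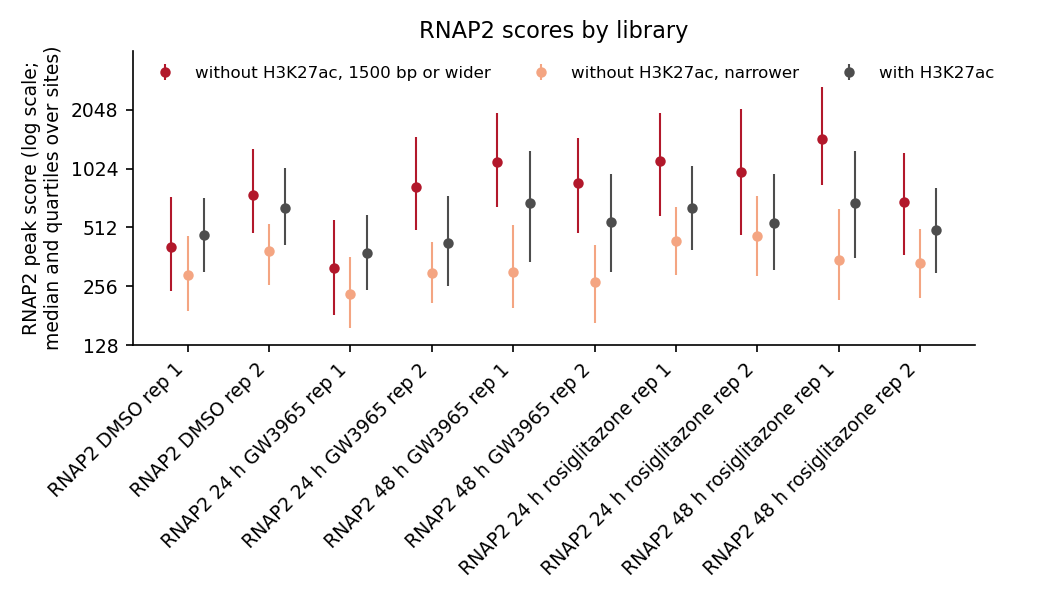
RNAP2 peak score (y axis, log scale; points are medians and bars quartiles over sites) in each of the 10 RNAP2 libraries (x axis), for wide and narrow sites without H3K27ac and for sites with H3K27ac. The sites with H3K27ac are of every width. Wide sites without the mark stand between -0.26 and 0.22 log2 units from marked sites in the DMSO libraries and replicate 1 of 24 h GW3965, and between 0.48 and 1.08 above them in the other drug libraries.

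The wide and narrow sites also differed in position. The nearest H3K27ac peak was 6337 bp from the wide sites and 13414 bp from the narrow ones at the median, and the nearest marked RNAP2 site 11259 bp and 48686 bp. Of the 283 sites in runs, 223 were wide.

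The 5 H3K27ac-free sites with the highest DMSO scores are described next, of which the last 2 were taken in order of position from several sites tied at 3100 in both DMSO libraries. The first, chr19:50356840-50365044 (8205 bp), had DMSO scores of 3197 and 3100. Its drug-treated libraries scored 3100 in 7 of 8 cases and 2893 in replicate 2 of rosiglitazone at 48 h. It lay 367 bp from an H3K27ac peak and held LXRB peaks in all 4 libraries (scores 512 and 164 at 2 h, 750 and 2151 at 48 h), JunD peaks with scores of 881 and 654, and no LXRA-FLAG or PPARG peak. The second, chr2:178088438-178095017 (6580 bp), had DMSO scores of 3191 and 3100 and peaks of JunD alone, with scores of 3100 and 1599. The third, chr10:14226954-14228427, was 1474 bp wide with DMSO scores of 3109 and 3100. It stood 236191 bp from the nearest H3K27ac peak and held peaks in 10 of 14 libraries, with JunD scores of 1225 and 987. The site chr1:27989391-27994608 (5218 bp) had scores of 3100 in both DMSO libraries and no receptor or JunD peak. Its scores were 597 and 1929 at 24 h of GW3965, 3100 and 2481 at 48 h of GW3965, 3100 and 1241 at 24 h of rosiglitazone, and 1411 and 392 at 48 h of rosiglitazone, so that its replicates differed widely. The site chr1:109780326-109786562 (6237 bp) scored 3100 in both DMSO libraries and held JunD peaks of 1633 and 1021, LXRB peaks in 3 libraries and a single LXRA-FLAG peak.

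The widest H3K27ac-free sites were between 18890 bp and 40459 bp wide. The widest, chr13:30075678-30116136 (40459 bp), scored 1061 and 2873 in DMSO. It scored 3100 in both libraries of 48 h GW3965, 24 h rosiglitazone and 48 h rosiglitazone, while its 24 h GW3965 libraries stood at 369 and 3108. It held JunD peaks with scores of 2554 and 1899 and LXRB peaks at 48 h of 164 and 254. The next, chr2:191823848-191856636 (32789 bp), scored 3100 in both DMSO libraries and less in most drug-treated libraries, with 1710 and 1194 at 48 h of GW3965 and 1393 and 688 at 48 h of rosiglitazone. It held no receptor or JunD peak. The last, chr9:21515686-21534575 (18890 bp), scored 3100 in both DMSO libraries and held JunD peaks alone, with scores of 3100 and 2304. Each of the 3 widest sites lay at least 8085 bp from an H3K27ac peak.

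The 5 H3K27ac-free sites with peaks in all 14 libraries and the highest RNAP2 scores were between 991 bp and 1850 bp wide. At chr9:114110909-114112758, 131000 bp from the nearest H3K27ac peak, DMSO scores were 1422 and 2184. Its LXRA-FLAG scores were 1282, 550, 578 and 656 and its PPARG scores 799, 801, 453 and 272, while both JunD peaks were weak, at 136 and 152. At chr5:82560740-82561809, 31783 bp from H3K27ac, LXRA-FLAG reached 2290 and 1009 at 2 h, PPARG 1190 and 924 at 2 h, and JunD 228 and 242. At chr5:21152394-21153525, 178861 bp from H3K27ac, JunD scores were 1340 and 1839, the highest of these 5 sites, and LXRA-FLAG scores were 910 and 410 at 2 h and 812 and 1652 at 48 h, with overlap. The sites chr19:36561009-36561999 and chrX:23824485-23826326 lay 13046 bp and 1311 bp from H3K27ac. Their highest LXRA-FLAG scores were 1938, in replicate 1 at 2 h, and 1558, in replicate 2 at 48 h. No gene annotation of hg19 was used here, so that genes at these sites are not analysed, and no sequence of them is shown.

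RNA-seq gave the levels of the enzymes that act on RNAP2 and on H3K27. A gene was called where it differed from DMSO 2-fold or more and its adjusted p was under 0.01 by edgeR's quasi-likelihood test, in libraries of 21044798 to 51332656 counts. Epithelial markers were present in all 32 libraries, with KRT8 (a simple epithelial keratin) at 7574 to 10757 CPM (counts scaled to library size). LGALS4 (an intestinal galectin) stood at 633 to 1256 CPM. Some intestinal markers were low, with CDX1 at 0.641 to 4.04 CPM, CDX2 at 6.01 to 19.8 CPM and CDH17 at 3.56 to 13.1 CPM. The blood cell marker PTPRC did not exceed 0.112 CPM. Of the fibroblast markers, PDGFRA did not exceed 0.0821 CPM and COL1A2 did not exceed 0.120 CPM. COL1A1 stood at 2.35 to 8.66 CPM, a range that overlapped that of CDX1. Of 51 genes on a list of RNAP2 subunits, pausing and elongation factors, H3K27 acetylation and methylation enzymes, readers and insulator proteins, 50 were measured. None was called with GW3965 at 24 h or with rosiglitazone at either time, where 0.537%, 2.18% and 5.86% of all genes were called. By DESeq2 the count in these comparisons was also 0, and without the fold limit 0, 6 and 18 of the 50 genes had an adjusted p under 0.01, against 2.73%, 12.3% and 25.5% of all genes. An unadjusted p under 0.05 was found for 5, 18 and 28 of the 50, against 15.4%, 31.9% and 45.2% of all genes. With GW3965 at 48 h, 2 of 50 were called, against 5.77% of all genes. In bulk RNA, fewer cells that express a gene and less RNA per cell cannot be told apart.

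KDM6B, a demethylase of H3K27, was one of them. Its DMSO libraries at 48 h held 123, 108, 115 and 122 CPM and those of GW3965 47.9, 45, 54.1 and 43.9 CPM. The groups did not overlap, and KDM6B fell by 1.29 on the log2 scale (SE 0.07, edgeR adjusted p = 6.40e-11). In rosiglitazone at 48 h KDM6B stood at 150, 180, 167 and 158 CPM (log2 change 0.49, adjusted p = 1.96e-05), under the fold limit. ELL2, a subunit of the super elongation complex, was the other. Its CPM values were 31.1, 28.6, 30.9 and 31.1 in DMSO and 14.3, 13.3, 15.3 and 13.4 with GW3965 at 48 h. ELL2 fell by 1.11 on the log2 scale (SE 0.18, edgeR adjusted p = 4.37e-05), without overlap. With rosiglitazone at 24 h, ELL2 was the gene of the list with the largest change, from 12.5, 15, 15.7 and 12.7 CPM in DMSO to 7.54, 7.63, 6.73 and 8.33 CPM (log2 change -0.89, adjusted p = 6.61e-07). At 24 h of GW3965 the largest change was that of KAT2B, an acetyltransferase, at -0.27 (adjusted p = 0.699), and at 48 h of rosiglitazone it was also KAT2B, at -0.95 (adjusted p = 1.99e-04). KAT2B levels were low, at 1.57 to 2.14 CPM in DMSO and 0.860 to 1.17 CPM with rosiglitazone at 48 h. At 24 h they were 1.05 to 1.40 CPM in DMSO and 0.906 to 1.06 CPM with GW3965.

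Without the fold limit, 23 of the 50 genes, KDM6B and ELL2 among them, were lower and 4 higher at an adjusted p under 0.01 with GW3965 at 48 h, where 17.5% of all genes were lower and 16.1% higher. With rosiglitazone at 48 h, 2 of the 50 were lower and 16 higher, against 13.1% and 12.3% of all genes. The H3K27 acetyltransferases EP300 and CREBBP changed by -0.60 (adjusted p = 1.08e-06) and -0.75 (adjusted p = 3.25e-08) with GW3965. With rosiglitazone CREBBP changed by 0.31 (adjusted p = 0.00116), and the value of EP300 was 0.22 (adjusted p = 0.0181), which did not pass. The difference between the drugs was not tested.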

How the data were processed

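For ChIP-seq, the authors ran MACS on every replicate with its input as control and deposited per replicate a score for each peak, minus 10 times the log10 of the p-value. Per the file headers, RNAP2 and H3K27ac libraries of the same drug and time were called against 1 shared input. RNA-seq was deposited by the authors as whole-number counts per gene, without normalization. The submitters' processing notes name Bowtie and MACS, TopHat and Cufflinks, and hg19. The counting program is not given in the sources used here.

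Overlaps of at least 1 bp were computed in Python 3.11.15 with SciPy 1.17.1, checked on simulated intervals. Coordinates are 1-based, on hg19. RNA-seq was tested over all genes with edgeR 4.0.16 (filterByExpr, TMM, quasi-likelihood F test, 16 libraries of a time point in 1 fit, Benjamini-Hochberg adjustment), with DESeq2 1.42.0 as an alternative. On simulated counts for GW3965 at 24 h (21781 genes), 200 of 200 genes changed by 4-fold were recovered. Standard errors were taken from the F statistic.

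Sites were named by rule: the 5 highest DMSO scores, the 3 widest, the 5 with peaks in most libraries, the 3 nearest to H3K27ac and the 3 smallest overlaps. From the gene list, those called were named, or else the largest change, and EP300 and CREBBP were added after their values had been seen. The sites, lists and tests were chosen with earlier results of these data known. Input and H3K36me3 samples were not reported on. T0901317 samples were part of the RNA-seq fits, but their comparison with DMSO was not reported. Same-numbered RNA-seq replicates were not treated as pairs, since the correlation of their deviations ran from -0.35 to 0.22.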

Additional observations from a re-analysis of the deposited data

Results flagged for a closer look

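JunD and the receptors differed in the contrast between RNAP2 sites without and with H3K27ac. The share of sites with a peak was higher without the mark in 2 of 2 JunD libraries and lower in 12 of 12 receptor libraries, and the 2 kinds of library differed by 44.3 percentage points (exact permutation of library labels, p = 0.0220). Replicates of a group are not independent, and with replicates averaged the call was lost (exact permutation p = 0.286, the smallest that 1 group against 6 allows). The comparison was made after the values had been seen, and the JunD libraries came from DMSO-treated cells while the receptor libraries came from ligand-treated cells.

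In the RNA-seq, ELL2 at 28.6 CPM in replicate 2 of DMSO at 48 h stood apart from the other 3 libraries of its group, at 30.9 to 31.1 CPM, with a gap of 0.920 of the group's range. Of 18 groups of 4 libraries examined over 3 genes this was the only such value, and chance gives about 1 in 20.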

How the results depend on the processing

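The number of H3K27ac-free sites depended on the thresholds. It was 587 with RNAP2 peaks of a score of at least 200, 2173 when only the 2 DMSO files of H3K27ac were used to exclude sites, and between 1170 and 1706 under the other alternatives. Without RNA_Pol2_DMSO replicate 1 or 2 it was 1638 or 1456, and the median width was then 1514 bp or 1503 bp instead of 1960 bp, where sites are single peaks and not merged spans. The receptor difference kept its sign and passed p = 0.05 in all 14 alternatives (-43.5 to -10.5 points, exact permutation p from 4.88e-04 to 0.0312). The limit of 1500 bp, chosen after seeing the data like the omission of PPARG replicate 2 at 48 h, set both ends of that range (-10.5 for narrower sites, -43.5 for wider ones). Each of these p-values is the smallest that its number of libraries allows. They show that the libraries share a sign, not how large the difference is, and the alternatives reuse the same libraries. The JunD difference stayed between 9.50 and 17.6 points. The difference between JunD and receptors ran from 22.0 to 58.8 points. With replicates averaged it was 44.3 points, and with 1 replicate of each group left out 39.8 and 48.9 points, each with an exact permutation p = 0.286, the smallest that 1 against 6 libraries allow.

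The change of LXRA-FLAG from 2 h to 48 h reversed to -3.30 points without replicate 2 and was 5.60 points without replicate 1. That of PPARG was -2.61 and -8.90 points, and that of LXRB 10.9 and 20.9 points. With the replicate block, the LXRB change of 15.9 points had an exact permutation p of 0.5, the smallest possible with 2 pairs, and the block changed no other call. The RNA-seq list had 12 called genes for GW3965 at 48 h, 1 for rosiglitazone at 24 h and 2 for rosiglitazone at 48 h at a fold change of at least 1.5. For all genes these counts were 3608 (1297 at 2-fold), 1077 (475) and 2738 (1317), and for GW3965 at 24 h 291 (117). With library size alone rosiglitazone at 48 h gave 1, and without single libraries 0 to 1, with 1 when DMSO replicate 4 or rosiglitazone replicate 4 was left out. The replicate block left the list's counts at 0, 0, 2 and 0. Analyses of genes and motifs at the sites were not run for want of an hg19 annotation. Depth limits which peaks reach a score of 100, and 2 libraries per group cannot give p under 0.33.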
